A study of Homo sapiens with 100 samples.

Results

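This section describes what changed in the transcriptome of wild-type TMD8 clones when the BTK degrader bexobrutideg was given together with the BCL2 inhibitor venetoclax rather than venetoclax given alone. The comparison was defined by the library labels and rests on 8 of the 100 libraries of the series, namely the combination and the venetoclax library of wild-type clones 1, 2, 4 and 5, paired by clone. TMD8 is an established cell line from an activated B cell-like diffuse large B cell lymphoma, and each clone was grown from a single cell. All cells were exposed for 24 h, the doses are not given in the sources used here, and polyadenylated RNA of each bulk culture was counted near its 3′ ends. The other libraries used beside them were the DMSO (vehicle) and bexobrutideg libraries of the same 4 clones, also at 24 h, and the venetoclax and combination libraries of 6 single-cell clones carrying A428D at the endogenous BTK locus. The library titles write A428D after the name SF3B1, whereas the growth protocol places it in BTK, and the second reading is used here. Wild-type clone 3 was left out because its combination library held 1.48 M counts (M, 1000000), against 4.475 to 6.11 M counts in the 4 clones used, and had lost GC-rich transcripts (rank correlation of its deviation with gene GC content -0.729).

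BTK (Bruton tyrosine kinase) couples the B cell receptor to NF-kB, a family of transcription factors whose subunits, inhibitors and target genes are themselves switched on by the pathway. Activated B cell-like lymphoma depends on this chronic signal, and one of its best known outputs is IRF4, a transcription factor of activated and plasma cells. Bexobrutideg binds BTK and the cereblon ubiquitin ligase, so that BTK protein is marked for destruction. Venetoclax occupies the groove of BCL2, the guardian protein that holds pro-death BH3-only proteins in check.

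The promoters below are shown because they belong to genes that describe the main directions of change, and each holds a match to the motif of a factor known to act on that kind of gene. All sequences come from RefSeq on build GRCh38.p14 and give 250 bases before and 30 after the annotated start, on the gene's own strand. For NFKBIA, the NF-kB inhibitor, and CCL22, a chemokine, the capitals mark a match to the kappaB consensus, the site bound by NF-kB. For CARS1, the cysteinyl-tRNA synthetase, and SLC7A1, an arginine and lysine transporter, capitals mark the amino acid response element TGATGNAA, to which ATF4 binds, read on the opposite strand (TTGCATCA) in CARS1. In SRM, the spermidine synthase, they mark the E-box CACGTG used by MYC, and in ISG20, an interferon-induced exonuclease, a match to the interferon-stimulated response element consensus.
NFKBIA, chr14:35404720-35404999, minus strand: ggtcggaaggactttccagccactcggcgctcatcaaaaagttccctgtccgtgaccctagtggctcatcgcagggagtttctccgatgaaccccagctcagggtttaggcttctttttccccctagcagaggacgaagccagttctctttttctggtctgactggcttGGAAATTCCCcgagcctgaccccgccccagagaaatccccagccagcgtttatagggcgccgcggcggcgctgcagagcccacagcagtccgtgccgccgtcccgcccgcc
CCL22, chr16:57358533-57358812, plus strand: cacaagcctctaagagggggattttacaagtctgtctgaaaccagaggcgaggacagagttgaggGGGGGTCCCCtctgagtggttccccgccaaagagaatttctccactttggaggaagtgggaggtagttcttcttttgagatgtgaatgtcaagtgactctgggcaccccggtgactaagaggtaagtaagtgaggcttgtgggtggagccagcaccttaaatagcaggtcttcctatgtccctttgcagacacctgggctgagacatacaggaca
CARS1, chr11:3057394-3057673, minus strand: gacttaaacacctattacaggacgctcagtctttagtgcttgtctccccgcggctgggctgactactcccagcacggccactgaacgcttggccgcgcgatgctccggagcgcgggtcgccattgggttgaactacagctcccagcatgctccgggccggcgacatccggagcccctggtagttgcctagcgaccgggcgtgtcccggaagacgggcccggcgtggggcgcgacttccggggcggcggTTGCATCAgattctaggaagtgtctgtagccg
SLC7A1, chr13:29595659-29595938, minus strand: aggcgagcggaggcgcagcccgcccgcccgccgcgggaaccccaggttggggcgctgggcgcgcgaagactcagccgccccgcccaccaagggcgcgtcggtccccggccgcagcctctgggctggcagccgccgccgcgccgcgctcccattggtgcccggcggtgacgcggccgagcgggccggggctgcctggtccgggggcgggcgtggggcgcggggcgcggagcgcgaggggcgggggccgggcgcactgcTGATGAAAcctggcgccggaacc
SRM, chr1:11059989-11060268, minus strand: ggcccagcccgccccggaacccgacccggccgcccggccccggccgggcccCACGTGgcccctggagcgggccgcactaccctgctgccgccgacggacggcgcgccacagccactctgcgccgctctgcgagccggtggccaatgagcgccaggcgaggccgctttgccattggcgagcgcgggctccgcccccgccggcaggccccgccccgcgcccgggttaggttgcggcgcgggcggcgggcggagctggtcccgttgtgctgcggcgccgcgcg
ISG20, chr15:88638766-88639045, plus strand: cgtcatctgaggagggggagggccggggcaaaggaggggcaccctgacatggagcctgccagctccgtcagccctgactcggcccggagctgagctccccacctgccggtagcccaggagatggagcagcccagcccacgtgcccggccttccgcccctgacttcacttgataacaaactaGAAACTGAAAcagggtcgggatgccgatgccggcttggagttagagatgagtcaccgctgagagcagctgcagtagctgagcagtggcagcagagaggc

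Both strands were searched in windows reaching 50 bases past the start, and a match describes letters only. Of 35116 RefSeq windows, 5.91% held a kappaB match, 3.62% an amino acid response element, 7.26% an E-box and 3.57% an interferon response element. Among tested genes that had a window, the shares were 8.43%, 2.57%, 13% and 4.13% in the same order. Here and below a gene counts if any of its windows held a match, so these shares compare with each other and not with those per window. In the list of NF-kB subunits and inhibitors 13 of 19 genes with a window (68.4%) held a kappaB match, and in the cytokine list 6 of 14 (42.9%). The amino acid response element stood in 7 of 16 tRNA synthetase genes (43.8%) and 8 of 27 genes of the ATF4 list (29.6%). E-boxes were found in 20 of 35 genes of the MYC list (57.1%), and the interferon element in 17 of 26 interferon-stimulated genes (65.4%). Over all genes that fell the E-box share was 16%, against 12.6% among genes not called and 11.1% among those that rose, while the kappaB shares of 9.26%, 8.17% and 8.67% lay close together. In the same order the amino acid response element stood at 3.93%, 2.22% and 2.55%, and the interferon element at 3.46%, 3.87% and 6.54%.

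MIR155HG, one of the genes that fell most, is the host transcript of miR-155, a microRNA of activated B cells and lymphoma. The mature strand is shown because it is the product of that host gene, with its seed (bases 2 to 8) in capitals. It lies at chr21:25573983-25574006 on the plus strand of GRCh38.p14.
hsa-miR-155-5p: uUAAUGCUaaucgugauagggguu

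Adding bexobrutideg moved a large part of the expressed genes, mostly by small amounts. Of 13823 genes tested, 3956 (28.6%) were called at an adjusted p under 0.05, with 1819 higher (13.2%) and 2137 lower (15.5%), and 394 of them changed at least 2-fold. The median log2 change over all genes tested was -0.0069. For 2809 genes (20.3%) the values of the 4 combination libraries did not overlap with those of the 4 venetoclax libraries. The shares of 13.2% higher, 15.5% lower and 20.3% not overlapping are the background for the list counts below. Unless another comparison is named, changes are log2 of combination over venetoclax in the 4 clones. The ± value is a standard error derived from the test statistic of the fitted model, not the spread of 4 paired changes. P-values come from edgeR's quasi-likelihood test, adjusted over all genes by the Benjamini-Hochberg method. Levels are CPM (counts scaled to a library of 1 M, with TMM library sizes) for clones 1, 2, 4 and 5 in that order. With the clone as a block, the p-values rest on the spread of treatment effects between clones, pooled over all libraries of a fit. The clones come from 1 cell line, so spread between cell lines is not measured. In bulk RNA fewer cells of a kind and less RNA per cell cannot be told apart. With upper-quartile scaling the calls split into 2184 higher and 1689 lower (56.4% higher, against 46% above), so the balance of small changes depends on the scaling. When clone 3 was added, 62 of the 249 called genes among those named lost their call without changing sign. They included BTK (adjusted p = 0.589), MYC (0.397), BCL2A1 (0.372) and CD79B (0.62). RPS14, MT-ND4, MT-CO2 and ERAP1 changed sign and lost their call as well.

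**Figure D1:**
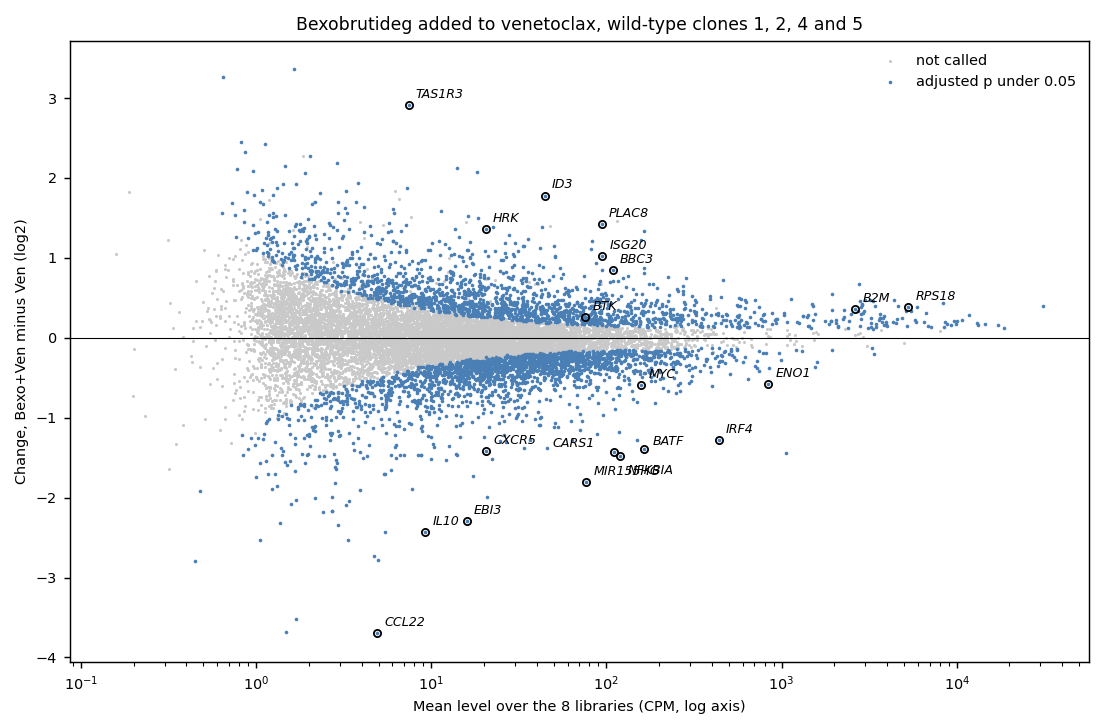
Log2 change on adding bexobrutideg to venetoclax (vertical) against the mean level over the 8 libraries (CPM, log axis), 1 point per gene tested, with called genes in blue and genes discussed in the text circled. The labelled genes of the NF-kB, cytokine and IRF4 groups lie well below 0, ID3, TAS1R3 and HRK lie above it, and the abundant ribosomal and mitochondrial transcripts on the right sit slightly above 0.

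Combination libraries were smaller in all 4 clones, with 4.475 to 6.11 M counted reads against 6.49 to 7.394 M counted reads with venetoclax alone. The mitochondrial share was higher in 4 of 4 clones (9.216 to 9.964% against 8.034 to 8.945%), as was the share of the 100 most abundant genes (50.02 to 51.54% against 46.22 to 47.45%). An exact two-sided sign-flip permutation test over 4 pairs cannot reach 0.05, and all 3 measures gave the smallest p it allows, also after adjustment over them. Thinning every library to the shallowest one left 3429 calls, 1562 higher and 1867 lower. Transcripts of other cell types were scarce, given here as summed CPM without TMM scaling. T and NK cell markers summed to 0.4622 to 1.882 CPM with venetoclax and 1.309 to 2.822 CPM with the combination, and 0 of 13 passed the expression filter. Myeloid markers summed to 14.48 to 24.46 and 19.31 to 25.92 CPM (only CD68 passed the expression filter, log2 change 0.23 ± 0.12, adjusted p = 0.145, 0.0487 without clone 4), while MPO, S100A8 and S100A9 were at 0 in all 8 libraries. Fibroblast and endothelial markers summed to 6.357 to 8.83 and 12.51 to 16.53 CPM. Of the 3 tested, PECAM1 (log2 change 2.18 ± 0.26) and DCN (1.29 ± 0.23) rose, while VWF, CDH5, KDR and COL3A1 were at 0; their part in the results was not tested. B cell identity markers summed to 6582 to 7901 CPM with venetoclax and 7445 to 8948 CPM with the combination.

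BTK itself, at chrX:101349447-101390796, was counted at 66.5, 61.7, 73.3 and 75.4 CPM with venetoclax and 81, 83.2, 83.3 and 83 CPM with the combination. The transcript was slightly higher in every clone (log2 change 0.26 ± 0.06, adjusted p = 0.00149), and the groups did not overlap. BTK RNA does not report on BTK protein, which is what the drug acts on. Transcripts of the ligase partner CRBN rose as well (log2 change 0.38 ± 0.11, adjusted p = 0.00744), from 12.3, 12.6, 12.8 and 12.3 CPM to 15.7, 15.3, 16.3 and 18.2 CPM, with an adjusted p of 0.078 without clone 5 and 0.0513 with no expression filter. IKZF1, a lymphoid factor degraded by other cereblon drugs, was not called (log2 change -0.13 ± 0.05, adjusted p = 0.057). It was called without clone 1 (adjusted p = 0.0273), with DESeq2's size factors (0.0495), with no expression filter (0.0207) and with all 32 libraries of the 4 clones (0.0254). IKZF3, its close relative, was slightly lower at log2 -0.15 ± 0.05 (adjusted p = 0.0356), a call lost with DESeq2, under upper-quartile scaling, after thinning, with only the 8 libraries compared, without the clone block and without clone 2, 4 or 5 (adjusted p from 0.0553 to 0.298).

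Among NF-kB subunits, inhibitors and feedback genes, 14 of 21 tested members fell and none rose, with a median log2 change of -0.59 against -0.0069 for all genes and a background of 15.5% lower calls. The falls covered the inducible subunits RELB, NFKB2, NFKB1 and REL and the inhibitors and brakes NFKBIA, NFKBID and TNFAIP3. Groups did not overlap for 11 of the 21, against 20.3% of all genes tested.

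NFKBIA encodes IkappaB-alpha, the inhibitor that NF-kB induces to shut itself off, and its promoter is the first one printed above. The gene was at 199.5, 169.9, 169.8 and 168 CPM with venetoclax and 60.2, 60.8, 70.6 and 62.3 CPM with the combination. Every combination library was below every venetoclax library by a wide margin, clone 1 having the highest starting level (log2 change -1.48 ± 0.07, adjusted p = 7.16e-20, a 2.78-fold fall). NFKBID, which encodes the nuclear inhibitor IkappaB-NS, went from 34.5, 32.9, 35.3 and 30.04 CPM to 8.43, 8.02, 7.42 and 9.73 CPM (log2 change -1.99 ± 0.12, adjusted p = 7.27e-16). The A20 deubiquitinase gene TNFAIP3, a brake on the pathway, fell from 36.2, 34.8, 34.9 and 26.2 CPM to 17, 14.4, 14.7 and 17.1 CPM (log2 change -1.06 ± 0.10, adjusted p = 5.13e-11). All 3 feedback genes were lower in each clone, with no overlap between the groups.

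Of the subunits, RELB, a partner in the alternative pathway, fell most. It was at 64.7, 61.2, 67.6 and 72 CPM and then 30.03, 25.2, 23.5 and 23.8 CPM (log2 change -1.37 ± 0.08, adjusted p = 6.57e-17), and NFKB2, the precursor of its partner p52, at 21.2, 23.9, 24.1 and 23 CPM and then 10.8, 10.8, 11.9 and 10.8 CPM (log2 change -1.05 ± 0.11, adjusted p = 6.75e-10). NFKB1, the p105 precursor, and REL, the c-REL subunit, fell less, with log2 changes of -0.86 ± 0.07 and -0.59 ± 0.08 (adjusted p = 3.62e-12 and 7.97e-07). RELA, the p65 subunit, and BCL3, a nuclear co-activator, were not called. RELA had 22.5, 23.2, 23.1 and 27.4 CPM and then 20.6, 28.8, 25.3 and 25.9 CPM (adjusted p = 0.716), and BCL3 283, 279, 292 and 293 CPM and then 316, 289, 291 and 272 CPM (0.747). Of the genes in this paragraph, RELB, NFKB2, NFKB1 and REL were therefore called lower, while RELA and BCL3 levels overlapped between groups.

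The genes that the receptor and NF-kB are known to drive gave 18 lower and 2 higher of 29 tested (median log2 change -0.40). IRF4, at chr6:391739-411447, was the most significant of the group after BATF. Its level was 604, 593, 663 and 621 CPM with venetoclax and 269, 275, 246 and 236 CPM with the combination. Every clone lost most of the transcript and the groups were far apart (log2 change -1.28 ± 0.05, adjusted p = 4.72e-21, 2.42-fold). BATF, the AP-1 factor that works with IRF4, went from 212, 259.7, 222 and 251 CPM to 84.9, 99.96, 85.6 and 89.5 CPM (log2 change -1.39 ± 0.05, adjusted p = 2.12e-21). MIR155HG, at chr21:25561909-25575168, went from 107, 133, 122 and 113 CPM to 34.1, 38.2, 34.8 and 29.4 CPM (log2 change -1.80 ± 0.08, adjusted p = 1.95e-20), a 3.49-fold fall of the host of the microRNA printed above. PLEK, which encodes pleckstrin, a protein kinase C substrate, fell from 161, 114, 118 and 99.7 CPM to 68.7, 54.5, 46.4 and 45.2 CPM (log2 change -1.20 ± 0.07, adjusted p = 1.39e-16). Clone 1 had the most PLEK in both groups, and the groups remained apart.

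CFLAR, which encodes FLIP, the blocker of caspase-8, was at 124, 128, 113 and 118 CPM and then 94.3, 85.6, 83.8 and 79.99 CPM (log2 change -0.49 ± 0.06, adjusted p = 3.71e-08). The exceptions in the list were LTB, the lymphotoxin beta gene, and GADD45B, a stress-inducible regulator. LTB rose from 86.9, 62.2, 53.8 and 66.2 CPM to 136, 124, 90.2 and 134 CPM (log2 change 0.85 ± 0.14, adjusted p = 0.00112). GADD45B had 89.6, 78.7, 99 and 86.9 CPM and then 113, 83.5, 105 and 97.7 CPM, overlapping groups, and its call (log2 0.17 ± 0.06, adjusted p = 0.0305) was lost without the clone block (0.23), with DESeq2 (0.0786), with no expression filter (0.346) and without clone 1 (0.253) or 5 (0.0816).

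**Figure D2:**
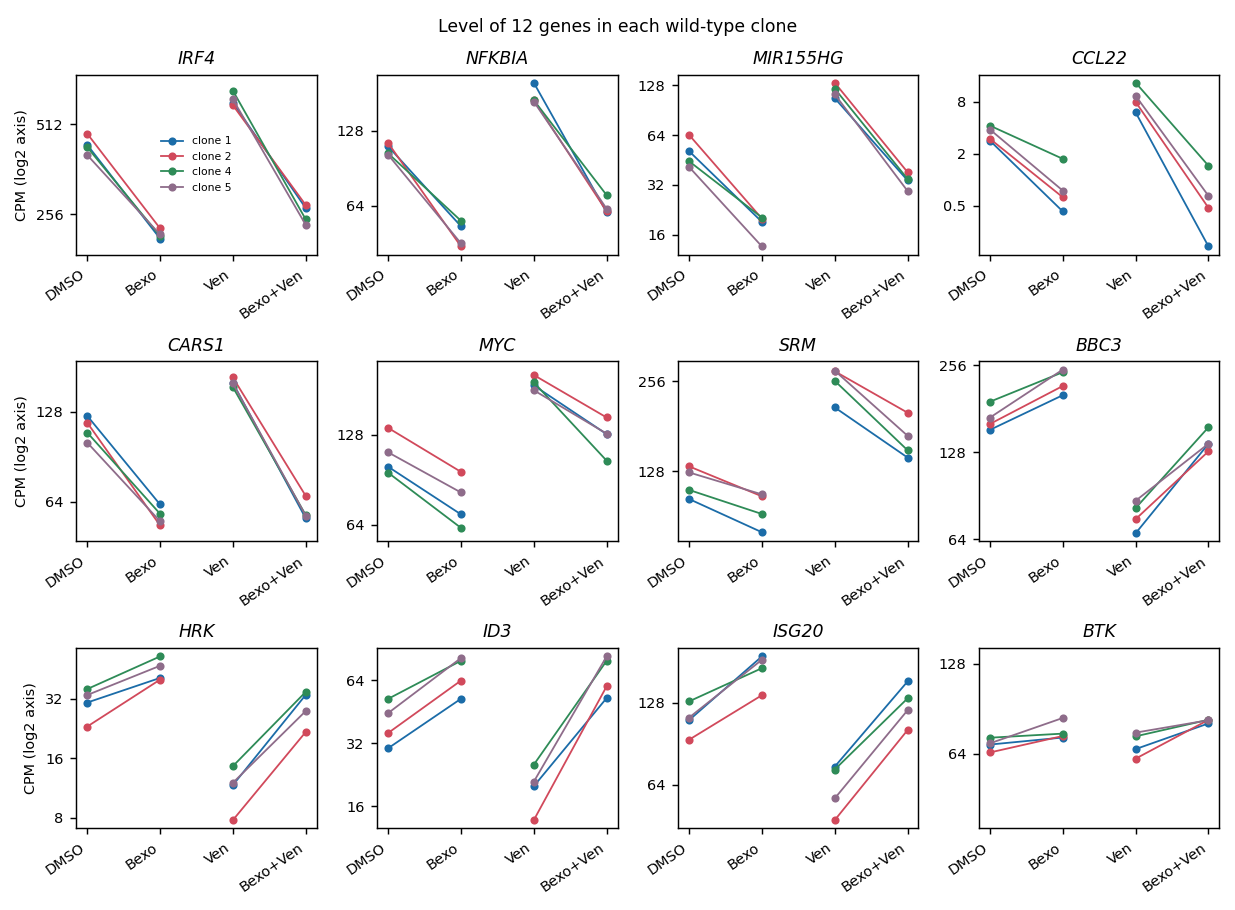
Level of 12 genes (CPM, log2 axis) in wild-type clones 1, 2, 4 and 5 with DMSO, bexobrutideg (Bexo), venetoclax (Ven) and both (Bexo+Ven), 1 point per library and lines joining the libraries of a clone. In the right-hand pairs IRF4, NFKBIA, MIR155HG, CCL22, CARS1, MYC and SRM go down in all 4 clones and BBC3, HRK, ID3, ISG20 and, by little, BTK go up.

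Of 18 cytokine and chemokine genes tested, 13 fell and 2 rose, with a median log2 change of -1.34. Many of these genes are scarce, and members that passed the expression filter only through the venetoclax libraries had to differ. Among those with a mean count of at least 50, 4 fell and 2 rose, and the median was -0.30. CCL22, a chemokine that draws regulatory T cells and a gene with a kappaB match among the promoters above, stood at 6, 7.93, 13.2 and 9.35 CPM with venetoclax and 0.169, 0.472, 1.45 and 0.649 CPM with the combination (log2 change -3.70 ± 0.26, adjusted p = 3.52e-14). These levels are low, yet every clone fell and the groups did not overlap. IL10, the autocrine cytokine of this lymphoma type, went from 17.4, 21.5, 12.6 and 11.2 CPM to 3.04, 3.77, 2.9 and 1.73 CPM (log2 change -2.44 ± 0.18, adjusted p = 9.70e-14, 5.41-fold). EBI3, a subunit shared by interleukins 27 and 35, went from 19.8, 32.1, 23.3 and 30.6 CPM to 4.39, 5.89, 5.79 and 5.4 CPM (log2 change -2.30 ± 0.16, adjusted p = 2.96e-13). IL6, a growth cytokine of B cells, fell from 4.05, 6.66, 2.14 and 4.54 CPM to 0.675, 1.89, 0.905 and 0.865 CPM (log2 change -1.99 ± 0.28, adjusted p = 6.39e-07). The chemokine CCL4 and its near-identical copy CCL4L2 fell, with log2 changes of -1.62 ± 0.27 and -2.73 ± 0.24 (adjusted p = 1.17e-05 and 1.47e-11), although reads cannot be fully assigned between these copies. LTB, given above, and IL16, a T cell attractant (log2 change 0.55 ± 0.08, adjusted p = 1.34e-06), were the 2 that rose.

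In the STAT3 list, the pathway downstream of interleukins 6 and 10, 5 of 19 genes fell and 4 rose (median log2 change 0.07). The higher count was 2 without clone 1, 1 without clone 5 and 1 with DESeq2, and the median was -0.03 without clone 2 or 4 and -0.06 with clone 3 added. The falls included the kinase genes PIM2 (-0.36 ± 0.05, adjusted p = 1.32e-06), PIM3 (-0.37 ± 0.07, 3.39e-05) and PIM1 (-0.36 ± 0.07, 3.51e-05) and the AP-1 gene JUNB (-0.53 ± 0.07, 2.42e-07). These PIM and JUNB changes were 1.28 to 1.45-fold falls, small beside those of the cytokines themselves. The largest fall in the list was that of BATF, given above (log2 change -1.39).

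Immediate early genes and the feedback genes of the ERK kinase cascade gave 11 lower and 3 higher of 25 (median log2 change -0.53). The median depends on scarce members: with a mean count of at least 50 it was 0.05, with 6 lower and 3 higher, and it was -0.14 when only the 8 libraries compared were fitted and -0.26 with clone 3 added. DUSP2, a nuclear phosphatase for ERK, was at 58.7, 56.1, 35.2 and 46.5 CPM and then 20.6, 22.4, 15.8 and 16.4 CPM (log2 change -1.38 ± 0.09, adjusted p = 1.40e-15). IER3, an early survival gene, fell from 18.5, 23.2, 22.7 and 17.4 CPM to 8.27, 5.66, 9.05 and 6.27 CPM (log2 change -1.46 ± 0.13, adjusted p = 1.47e-11). EGR2, an early zinc finger factor, had 3, 3.26, 1.87 and 2.8 CPM and then 0, 0.236, 0.181 and 0.432 CPM (adjusted p = 4.67e-07), with no count in the clone 1 combination library. In the other direction went DUSP5, another ERK phosphatase, from 82.2, 67.7, 93.3 and 75.4 CPM to 135, 117, 127 and 136 CPM (log2 change 0.70 ± 0.07, adjusted p = 1.33e-09), and the mRNA decay factor ZFP36, from 84, 72.6, 82.7 and 75.4 CPM to 119.8, 106, 114 and 106 CPM (log2 change 0.51 ± 0.06, adjusted p = 4.24e-08). The third riser, JUN (0.26 ± 0.08, adjusted p = 0.0138), had overlapping groups and lost its call without the clone block (0.0857) and without clone 2 (0.0514), 4 (0.143) or 5 (0.0646).

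Genes of amino acid supply and the integrated stress response fell together. In the ATF4 list, the program through which cells answer amino acid shortage, 25 of 31 tested members fell and 1 rose (median log2 change -0.71), and of the 20 cytosolic aminoacyl-tRNA synthetases, which load tRNAs, 17 fell and none rose (median -0.45). Groups did not overlap for 23 of the 31 and 12 of the 20, against 20.3% of all genes tested.

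ATF4 itself was at 177, 278, 173 and 219.6 CPM with venetoclax and 87.4, 90.3, 91.1 and 77.4 CPM with the combination (log2 change -1.28 ± 0.13, adjusted p = 3.14e-05). Its relative ATF5 fell from 1316, 1822, 1598 and 1469.5 CPM to 509.6, 539, 745 and 514 CPM (log2 change -1.44 ± 0.11, adjusted p = 2.03e-06), the largest of these falls in absolute level. CEBPB, a partner factor, went from 46.4, 64.2, 50.04 and 53.8 CPM to 26.8, 27.1, 33.5 and 24.4 CPM (log2 change -0.93 ± 0.09, adjusted p = 2.19e-10). DDIT3, the gene of the pro-death factor CHOP, went from 8.1, 10.1, 8.96 and 10.4 CPM to 5.57, 4.24, 4.71 and 6.05 CPM (log2 change -0.86 ± 0.17, adjusted p = 1.37e-04). The transcription factor genes named here therefore fell in all 4 clones, as did most of the list by its calls.

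Among the transporters, SLC7A1 had 27.8, 44.9, 38.4 and 40.1 CPM and then 14.2, 19.8, 13.9 and 13.4 CPM (log2 change -1.30 ± 0.10, adjusted p = 5.52e-13). SLC1A5, the glutamine transporter, fell from 144, 216, 168 and 187 CPM to 85.9, 109, 114 and 109.6 CPM (log2 change -0.77 ± 0.06, adjusted p = 1.03e-12). In both, clone 2 began at the highest level. Serine synthesis genes PHGDH and PSAT1 fell, with log2 changes of -1.46 ± 0.17 and -1.10 ± 0.09 (adjusted p = 4.38e-07 and 1.77e-11), as did asparagine synthetase ASNS (-1.37 ± 0.15, 2.77e-09). The cystine importer SLC7A11 was the exception, rising from 22.4, 25.5, 24.1 and 20.8 CPM to 39.98, 28.8, 30.6 and 29.8 CPM (log2 change 0.49 ± 0.10, adjusted p = 9.88e-05). In the list of metallothioneins and oxidative stress genes, which holds SLC7A11 too, 3 rose and 4 fell of 16, with 2 lower without clone 2 and 1 without clone 4. Heme oxygenase HMOX1 was at log2 0.47 ± 0.07 (adjusted p = 4.83e-06).

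CARS1 was the most significant tRNA synthetase gene. Its counts were 159.8, 167, 155 and 159 CPM and then 56.3, 67, 57.8 and 57.5 CPM (log2 change -1.43 ± 0.06, adjusted p = 5.22e-20), with all 4 clones alike before and clone 2 a little higher after. GARS1, for glycine, went from 113, 163, 106 and 126 CPM to 60.7, 72.1, 63.7 and 61 CPM (log2 change -0.97 ± 0.07, adjusted p = 5.95e-14). TARS1 and EPRS1, for threonine and for glutamate and proline, fell, with log2 changes of -0.61 ± 0.07 and -0.57 ± 0.06 (adjusted p = 2.70e-09 and 5.85e-09).

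Endoplasmic reticulum genes were mixed, with 14 lower and 4 higher of 23 (median log2 change -0.28). HERPUD1, which helps export misfolded proteins, fell from 109.7, 116, 116 and 113 CPM to 69.2, 62.2, 61.4 and 65.3 CPM (log2 change -0.82 ± 0.06, adjusted p = 5.52e-13), and EDEM1, which selects glycoproteins for disposal, from 44, 57.4, 49.8 and 55.8 CPM to 19.1, 19.1, 24.1 and 23.3 CPM (log2 change -1.28 ± 0.13, adjusted p = 3.96e-07). Calreticulin (CALR), a chaperone, fell (log2 change -0.35 ± 0.05, adjusted p = 3.19e-07). The 4 that rose were XBP1, the central factor of the response and of plasma cells (0.34 ± 0.06, 4.74e-05), its activator ERN1 (0.43 ± 0.12, 0.00577, but 0.0617 without clone 1 and 0.0899 without clone 2), the ligase SYVN1 (0.23 ± 0.05, 0.00113) and DERL3, a channel component found in secretory cells (0.96 ± 0.12, 4.72e-08). DERL3 went from 10.1, 10.1, 10.8 and 10.5 CPM to 19.6, 19.6, 25.3 and 16 CPM with no overlap. Cytosolic heat shock chaperones gave 9 lower and 3 higher of 20 (median -0.17), with HSP90AB1 at log2 -0.36 ± 0.06 (adjusted p = 4.59e-06). The 3 higher were HSPA1A, HSPA1B and DNAJB4, of which HSPA1A and HSPA1B are near-identical genes whose calls were lost without the clone block (adjusted p = 0.367 and 0.141). HSPA1B also lost its call with no expression filter (0.0553) and without clone 2 (0.102) or 4 (0.0859). DNAJB4 lost its call with DESeq2 (0.0685), with no expression filter (0.0578) and without clone 2 (0.108) or 4 (0.0641).

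Growth genes fell by smaller amounts. In the list of MYC, its partners and the machinery that builds ribosomes, 32 of 41 genes fell and 4 rose, at a median log2 change of -0.32. MYC had 187, 202, 191 and 180.0 CPM and then 128, 146, 105 and 129 CPM (log2 change -0.59 ± 0.07, adjusted p = 3.56e-09), lower in every clone and lowest in clone 4. SRM, whose E-box is printed above, was at 209, 276, 256 and 277 CPM and then 142, 201, 150.3 and 168 CPM (log2 change -0.63 ± 0.05, adjusted p = 5.30e-12), groups apart although clone 1 started low and clone 2 ended high. ODC1, the first enzyme of polyamine synthesis, fell from 254, 343, 298 and 339 CPM to 165, 208, 186 and 205 CPM (log2 change -0.69 ± 0.05, adjusted p = 3.60e-13). NOLC1, a nucleolar scaffold for RNA polymerase I, fell from 96.8, 115, 107 and 116 CPM to 68.5, 76.9, 62.3 and 67.2 CPM (log2 change -0.66 ± 0.06, adjusted p = 2.20e-10). The 4 that rose were MXD4 (0.61 ± 0.13, adjusted p = 5.31e-04), MXD3 (0.43 ± 0.12, 0.00611), MXD1 (0.56 ± 0.19, 0.0265) and MLXIP (0.24 ± 0.08, 0.027). The MXD genes encode competitors of MYC for their shared partner MAX, and the calls of MXD1 and MLXIP did not hold with DESeq2 (adjusted p = 0.132 and 0.0955) or with no expression filter (0.129 and 0.211), that of MXD1 also not after thinning (0.0515). The higher count was 2 without clone 2 or 4. Without clone 2, 4 or 5 the adjusted p of MLXIP was 0.0686, 0.115 or 0.224, and that of MXD1 was 0.0604 without clone 2 and 0.244 without clone 4.

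Transcripts of the ribosome itself went the other way. Of 46 genes for cytosolic ribosomal proteins, 38 rose and none fell, by a median log2 change of 0.17. RPS18 was at 4513, 4719.6, 4619.6 and 4459.7 CPM and then 5384, 6099.9, 5741 and 6686 CPM (log2 change 0.38 ± 0.05, adjusted p = 4.07e-08), and RPS6 at 10735, 10339, 10857 and 10568 CPM and then 12556, 12806, 12357 and 13916 CPM (log2 change 0.28 ± 0.04, adjusted p = 1.68e-06). Groups did not overlap in 38 of the 46, against 20.3% of all genes tested, a small shift shared by most members. These are among the most abundant transcripts, and the share of the 100 most abundant genes rose in the same libraries by 3.878 percentage points, whose part in the result was not tested. Ribosomal protein genes have many processed copies, which limits the assignment of reads. In all, 20 were called higher without the clone block, and 1 with clone 3 added, where the median was -0.06.

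Replication genes formed a broad, shallow fall. Of 42 genes of DNA replication and S phase, 27 fell and 1 rose (median log2 change -0.43). Groups stood apart in only 5 of the 42, a smaller share than the 20.3% of all genes tested, with the clones at different levels. FEN1, the flap endonuclease of lagging strands, showed this: it had 103, 145, 144 and 165 CPM and then 66.8, 113, 92.3 and 90.4 CPM (log2 change -0.62 ± 0.07, adjusted p = 3.02e-09), a fall in each clone with overlapping groups. CDT1, a licensing factor, fell from 37.1, 56.4, 40.0 and 46.5 CPM to 22.3, 34.4, 26.6 and 32.4 CPM (log2 change -0.64 ± 0.09, adjusted p = 8.54e-07), and the helicase genes MCM2 and MCM3 fell with log2 changes of -0.53 ± 0.07 and -0.48 ± 0.07 (adjusted p = 3.65e-07 and 1.19e-06). The exception, E2F2 (0.60 ± 0.20, 0.0209), was at 3.54 to 9.9 CPM and lost its call with DESeq2 (0.0744), without the clone block (0.0589) and without clone 2 (0.303) or 5 (0.0803). Without the clone block 17 fell, and with clone 3 added 16.

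Mitosis genes changed less: 10 of 39 fell and none rose (median -0.20), and the count was 4 without clone 1 or 4, 6 without clone 2, 5 without clone 5, 4 with upper-quartile scaling and 2 without the clone block. PLK4, the centriole duplication kinase, was the clearest (log2 change -0.75 ± 0.14, adjusted p = 7.06e-05). Among G1 genes 5 of 13 fell and 2 rose. CDK6 went from 32.9, 41.9, 42.1 and 36.1 CPM to 23.6, 25.2, 24.4 and 23.3 CPM (log2 change -0.66 ± 0.08, adjusted p = 4.72e-08), cyclin D3 (CCND3) from 18.5, 28.6, 18.3 and 30.2 CPM to 12, 16.7, 14.1 and 14.7 CPM (log2 change -0.72 ± 0.12, adjusted p = 1.44e-05) and CDK4 fell too (-0.42 ± 0.07, 1.09e-05). The inhibitor genes CDKN2C and CDKN2D, which encode blockers of those kinases, rose by log2 0.52 ± 0.10 and 0.42 ± 0.11 (adjusted p = 5.24e-05 and 0.00305), the latter not called without clone 4 (0.109). Nucleotide synthesis genes gave 14 lower and 1 higher of 25 (median -0.25), led by IMPDH2 of guanine nucleotide synthesis (log2 change -0.55 ± 0.06, adjusted p = 2.79e-08), while the salvage kinase DCK rose (log2 change 0.28 ± 0.06, adjusted p = 8.04e-04).

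**Figure D3:**
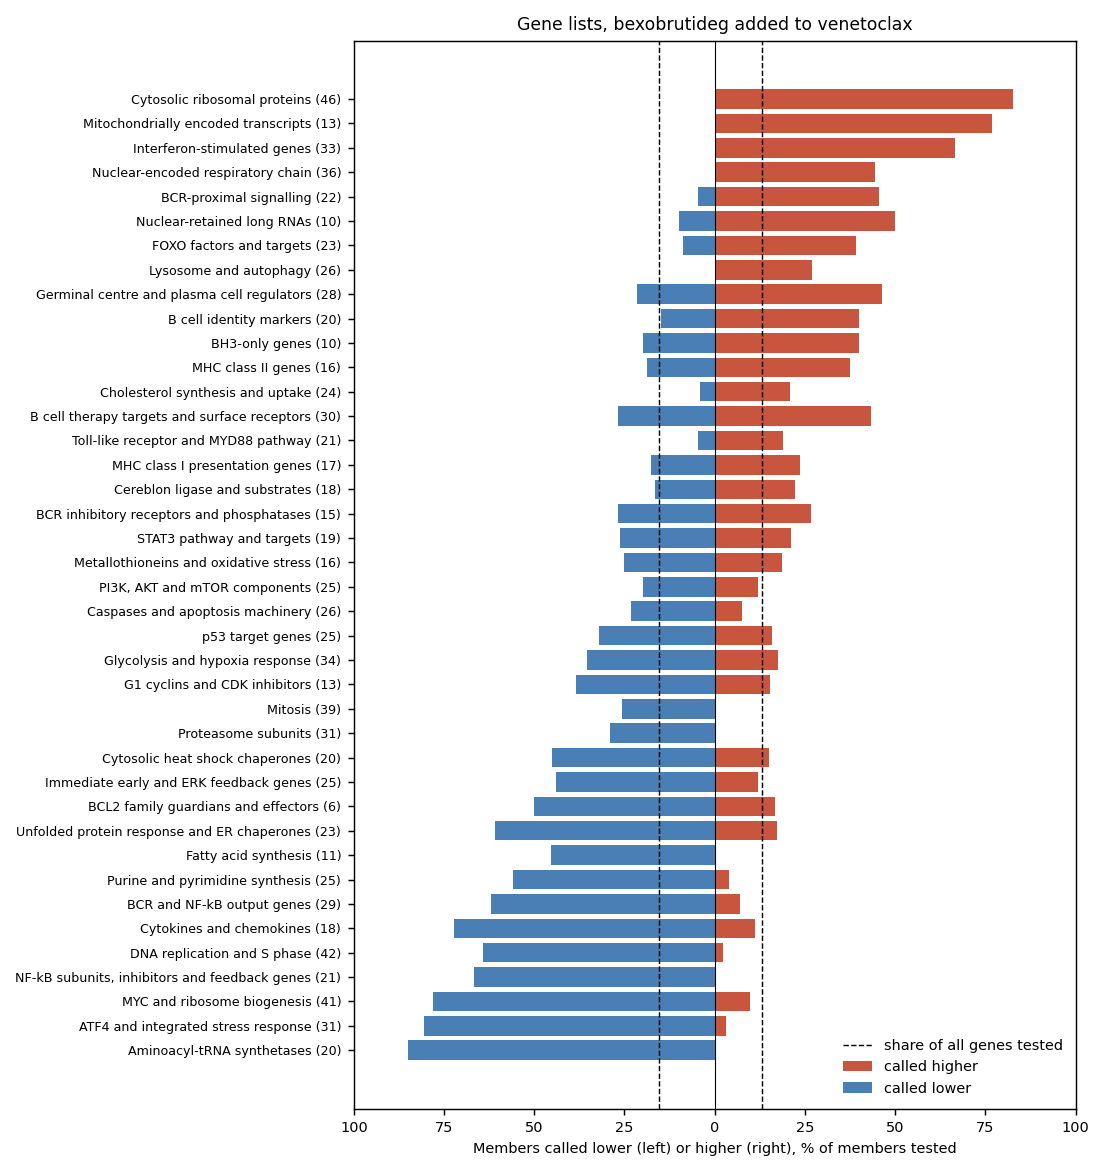
Share of the tested members of each gene list that were called higher (red, to the right) or lower (blue, to the left) when bexobrutideg was added to venetoclax, in percent, with the number tested in brackets and dashed lines at the shares of all genes tested. Lists for tRNA synthetases, ATF4, MYC and NF-kB reach far left of the line at 15.5%, and ribosomal proteins, mitochondrial transcripts and interferon-stimulated genes far right of the line at 13.2%.

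The BCL2 family moved on both sides of the balance that venetoclax acts on. Of 6 guardian and effector genes tested, BCL2A1, BCL2L1 and BCL2 fell and MCL1 rose, and of 10 BH3-only genes HRK, BBC3, BMF and BCL2L11 rose and PMAIP1 and BID fell. The effectors BAX and BAK1 were not called, with log2 changes of 0.02 ± 0.06 and 0.02 ± 0.11 (adjusted p = 0.842 and 0.911).

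BCL2A1, a guardian gene driven by NF-kB, was at 363, 354, 320.4 and 310.2 CPM with venetoclax and 268, 282, 206 and 271 CPM with the combination (log2 change -0.40 ± 0.05, adjusted p = 1.86e-07). BCL2L1, which encodes BCL-XL, fell from 12.5, 13.9, 14.3 and 10.8 CPM to 6.75, 6.13, 6.7 and 7.13 CPM (log2 change -0.95 ± 0.14, adjusted p = 1.30e-06), in every clone and with no overlap. BCL2, the target of venetoclax, fell a little, from 50.1, 47.9, 46.8 and 45.3 CPM to 42.7, 40.8, 42.5 and 32.9 CPM (log2 change -0.26 ± 0.08, adjusted p = 0.0101), with clone 5 the lowest, and without clone 5 the adjusted p was 0.0696. MCL1, a guardian that venetoclax does not bind, went up from 174, 152, 178 and 175 CPM to 228, 182, 193 and 196 CPM (log2 change 0.23 ± 0.05, adjusted p = 9.63e-04). The groups were just apart, and the adjusted p was 0.0514 without the clone block.

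BBC3, which encodes PUMA, is located at chr19:47220822-47232766. It went from 67.1, 75.1, 82 and 86.9 CPM to 137, 129, 156 and 137 CPM (log2 change 0.85 ± 0.06, adjusted p = 2.61e-14), and all 4 combination libraries lay far above the venetoclax libraries. HRK, the gene of Harakiri, rose most, from 11.7, 7.79, 14.6 and 12 CPM to 33.4, 21.7, 34.6 and 27.7 CPM (log2 change 1.36 ± 0.10, adjusted p = 3.94e-13, 2.56-fold), clone 2 being lowest in both groups. BMF rose from 20.7, 26.3, 24.2 and 22.7 CPM to 30.5, 30.2, 45.4 and 38 CPM (log2 change 0.62 ± 0.09, adjusted p = 5.25e-07). BCL2L11, the gene of BIM, rose from 323, 267, 293 and 263 CPM to 424, 336, 341 and 336 CPM (log2 change 0.32 ± 0.05, adjusted p = 1.26e-06), with clone 1 above the other 3. Lower members of the class were PMAIP1, the gene of NOXA and a known ATF4 target, which fell from 39, 44.2, 39.9 and 41.9 CPM to 27.2, 23.1, 26.3 and 27.9 CPM (log2 change -0.66 ± 0.09, adjusted p = 9.57e-08), and BID, from 98, 126, 102 and 108 CPM to 63.4, 81.1, 67.4 and 71.1 CPM (log2 change -0.61 ± 0.07, adjusted p = 1.75e-09). The counts of the BH3-only list were 4 higher and 2 lower under each of the alternatives run.

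Caspases and apoptosis machinery gave 6 lower and 2 higher of 26 (median log2 change -0.10), against 15.5% lower and 13.2% higher of all genes tested. The lower count was 3 without clone 2 and 3 without the clone block, and the median was 0.0062 with clone 3 added. CFLAR, given above, and BIRC3, a ubiquitin ligase gene induced by NF-kB (log2 change -0.56 ± 0.08, adjusted p = 2.57e-07), were lower. The initiator caspase genes CASP10 and CASP8 were higher, CASP10 from 7.5, 7.93, 9.23 and 9.48 CPM to 18.4, 13.4, 23.5 and 14.1 CPM (log2 change 1.04 ± 0.13, adjusted p = 5.50e-08) and CASP8 by log2 0.31 ± 0.08 (adjusted p = 0.00338, 0.0556 without the clone block). Targets of p53 split, with 8 lower and 4 higher of 25 and a median of -0.01, which was 0.01 without clone 4, 0.02 with only the 8 libraries compared and 0.03 under upper-quartile scaling. BTG2, an anti-proliferative gene, rose in each clone, from 227, 133, 163 and 148 CPM to 352, 218, 283 and 273 CPM (log2 change 0.75 ± 0.06, adjusted p = 3.75e-12), although clone 1 with venetoclax overlapped clone 2 with both drugs. PLK3, a stress kinase gene, fell (log2 change -1.09 ± 0.14, adjusted p = 7.40e-08), as did PMAIP1, while BBC3, TP53INP1 (1.11 ± 0.25, 5.51e-04) and GADD45A (0.54 ± 0.13, 0.00155) rose.

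Genes of the B cell programme moved in both directions. Of 22 genes for proximal receptor signalling, 10 rose and 1 fell (median log2 change 0.17). SYK, the kinase upstream of BTK, rose from 238, 241, 247 and 252 CPM to 306, 302, 337 and 325 CPM (log2 change 0.38 ± 0.05, adjusted p = 1.16e-07), and CD79B, a signalling chain of the receptor, from 295, 234, 237 and 242 CPM to 402, 333, 336 and 380.5 CPM (log2 change 0.53 ± 0.05, adjusted p = 4.63e-10). DAPP1, an adaptor that binds phosphoinositides, rose from 39.5, 29.6, 32.4 and 29 CPM to 59.7, 50.9, 49.97 and 50.2 CPM (log2 change 0.70 ± 0.08, adjusted p = 9.80e-09). LYN, the SRC-family kinase, was the 1 that fell, from 523, 436, 415 and 440.2 CPM to 363, 340.4, 319 and 322 CPM (log2 change -0.43 ± 0.05, adjusted p = 5.12e-09). With clone 3 added 3 rose and none fell. Inhibitory receptors and phosphatases were split 4 and 4 of 15 (2 lower without clone 2): the inhibitory Fc receptor gene FCGR2B (0.74 ± 0.09, adjusted p = 1.38e-08), the lipid phosphatase gene INPP5D (0.76 ± 0.11, 5.09e-06) and PTPN22 (0.87 ± 0.15, 2.31e-05) rose, and PTPN6, which encodes SHP-1, fell from 82.2, 82.8, 71 and 77.8 CPM to 45.5, 51.2, 57.4 and 54.7 CPM (log2 change -0.59 ± 0.08, adjusted p = 1.11e-07).

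B cell identity markers gave 8 higher and 3 lower of 20 tested (median 0.10). Of the 23 in the list, 23 had counts with venetoclax and 22 with the combination, BACH2, which did not pass the expression filter, being at 0 in every combination library. The surface gene CD37 (0.54 ± 0.05, adjusted p = 4.17e-11) and the adaptor BANK1 (0.87 ± 0.07, 2.56e-12) rose. MS4A1, which encodes CD20, was not called, at log2 0.09 ± 0.04 (adjusted p = 0.108, but 0.0207 under upper-quartile scaling, 0.0409 with a mean count of at least 50 and 0.0464 with only the 8 libraries compared). The transcription factor genes EBF1, TCF3 and PAX5 were the 3 that fell. EBF1 went from 156, 169, 159 and 162 CPM to 118, 110.1, 97.4 and 106 CPM (log2 change -0.58 ± 0.06, adjusted p = 1.09e-09), TCF3 from 201, 219, 243 and 247 CPM to 163, 172, 175 and 179.9 CPM (log2 change -0.40 ± 0.06, adjusted p = 3.01e-06), and PAX5 (log2 -0.25 ± 0.05, 4.61e-04, 0.0716 without the clone block) had overlapping groups.

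Germinal centre and plasma cell regulators gave 13 higher and 6 lower of 28 (median 0.12). ID3, an inhibitor of the TCF3 protein family, was the leading one. It was at 19.95, 13.7, 25.3 and 21 CPM and then 52.6, 59.9, 79.3 and 83.2 CPM (log2 change 1.78 ± 0.09, adjusted p = 1.19e-18, 3.43-fold), and every combination library held more than the highest venetoclax library by a wide margin. S1PR2, the receptor that keeps germinal centre B cells in place, rose from 7.05, 10.1, 8.29 and 8.01 CPM to 17, 25, 29.3 and 24.6 CPM (log2 change 1.52 ± 0.12, adjusted p = 8.06e-13). JCHAIN, the joining chain of secreted antibody, rose from 33.3, 23.4, 30.6 and 37.1 CPM to 65.8, 62.5, 57.9 and 91.2 CPM (log2 change 1.15 ± 0.08, adjusted p = 2.11e-14). The factors IRF8 and SPI1 rose by log2 0.53 ± 0.07 and 0.64 ± 0.12 (adjusted p = 1.44e-07 and 3.39e-05). IRF4 and ELL2, an elongation factor of plasma cells (-0.76 ± 0.10, 1.59e-07), fell. BCL6, the master repressor of the germinal centre, was not called (-0.11 ± 0.12, 0.545), and PRDM1, its plasma cell counterpart, changed by only 0.17 ± 0.06 (0.0221), a call lost with DESeq2 (0.0518), with no expression filter (0.283), without the clone block (0.281) and without clone 1 (0.12) or 5 (0.11).

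Surface receptors gave 13 higher and 8 lower of 30 (median 0.14). CXCR5, the homing receptor for follicles, fell from 32.1, 28.9, 28.1 and 31.4 CPM to 10.8, 10.6, 13 and 10.4 CPM (log2 change -1.42 ± 0.11, adjusted p = 1.39e-13, 2.67-fold). CXCR4, the chemokine receptor of the dark zone, rose from 72.2, 81.1, 107 and 92.1 CPM to 112, 116, 153 and 131 CPM (log2 change 0.54 ± 0.06, adjusted p = 1.85e-09). CD27 and CD52, surface proteins of memory B cells and lymphocytes, were low and rose by log2 1.94 ± 0.22 and 1.26 ± 0.18 (adjusted p = 7.76e-09 and 1.09e-05). In the FOXO list, factors that phosphoinositide 3-kinase keeps out of the nucleus, 9 rose and 2 fell of 23 (median 0.32). FOXO1 and FOXO3 rose by log2 0.41 ± 0.09 and 0.70 ± 0.14 (5.74e-04 and 2.32e-04), and S1PR1 (-0.35 ± 0.08, 0.00107) was 1 of the 2 that fell.

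Interferon-stimulated genes rose without a fall among them. Of 33 tested, 22 were higher and none lower, with a median log2 change of 0.47. ISG20, whose promoter holds the interferon element shown above, went from 74.6, 47.4, 72.8 and 57 CPM to 153, 102, 133 and 120.2 CPM (log2 change 1.02 ± 0.07, adjusted p = 2.61e-14). OAS1, an antiviral sensor of double-stranded RNA, rose from 64.2, 45, 60.7 and 50.6 CPM to 95, 87.7, 101 and 93.4 CPM (log2 change 0.78 ± 0.07, adjusted p = 1.06e-11). TRIM22, an antiviral ligase, and STAT2, a factor of the interferon complex, rose by log2 0.55 ± 0.06 and 0.82 ± 0.10 (adjusted p = 1.30e-08 and 3.82e-08). Every clone moved up for these 4 and the groups did not overlap. The count was 14 without the clone block.

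Antigen presentation genes had lower calls near the background of 15.5%. MHC class II genes gave 6 higher and 3 lower of 16 (median 0.04), and class I genes 4 higher and 3 lower of 17 (median 0.07). For class II, 1 was lower without clone 2, and the median was -0.02 with clone 3 added and -0.0080 with no expression filter. HLA-DMB, a peptide loader, rose from 29.4, 25.2, 23 and 20.6 CPM to 44.9, 39.1, 35.3 and 42.6 CPM (log2 change 0.73 ± 0.10, adjusted p = 2.94e-07), and HLA-DRA by log2 0.28 ± 0.05 (adjusted p = 1.11e-05), while HLA-DQA1 (-0.32 ± 0.09, 0.00472) was lower, a call lost without clone 2 (0.0715) and without the clone block (0.416). Their activator CIITA was not called (0.09 ± 0.10, 0.545). In class I, B2M, the shared light chain, rose by log2 0.36 ± 0.05 (3.12e-07) and the activator NLRC5 from 14.1, 10.5, 10.8 and 12.6 CPM to 25.1, 21.7, 22.6 and 21.4 CPM (log2 change 0.93 ± 0.11, adjusted p = 3.38e-08). Reads of the polymorphic HLA genes can be split among their copies, so these values are uncertain.

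Glycolysis and hypoxia genes gave 12 lower and 6 higher of 34 (median -0.13). ENO1, the enolase, fell from 855, 1100.3, 998 and 1079.9 CPM to 609, 739, 662 and 693 CPM (log2 change -0.58 ± 0.05, adjusted p = 7.91e-11), and PKM and LDHA, the last steps to lactate, had log2 changes of -0.54 ± 0.05 and -0.51 ± 0.06 (adjusted p = 1.73e-10 and 8.73e-08). P4HA2, a collagen prolyl hydroxylase gene in the same list, rose from 16.2, 12, 15.9 and 15.4 CPM to 39.3, 25, 31.5 and 30.7 CPM (log2 change 1.08 ± 0.09, adjusted p = 5.30e-12). Fatty acid synthesis gave 5 lower (3 without clone 5) and none higher of 11, with FASN, the synthase, at log2 -0.31 ± 0.06 (9.12e-05). Cholesterol genes gave 5 higher (3 without clone 5) and 1 lower (2 without clone 1) of 24. The 1 was INSIG1, the sterol sensor that restrains the pathway, from 158, 136, 159.7 and 129.8 CPM to 103, 82, 92.2 and 78 CPM (log2 change -0.72 ± 0.10, adjusted p = 2.86e-05), and the enzymes MSMO1 and IDI1 rose by log2 0.39 ± 0.07 and 0.25 ± 0.06 (2.65e-05 and 5.96e-04), the former not called without the clone block (0.0974). Proteasome subunits gave 9 lower and none higher of 31, and lysosome and autophagy genes 7 higher (4 without clone 5) and none lower of 26, led by the protease CTSB (log2 change 0.52 ± 0.08, adjusted p = 8.71e-07).

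Respiratory chain transcripts rose slightly. Of 36 nuclear genes 16 rose and none fell (median 0.08), and of 13 mitochondrially encoded genes 10 rose and none fell (median 0.19). NDUFA4, a subunit of cytochrome oxidase, was at 265, 279, 264 and 263 CPM and then 341, 403, 327 and 427 CPM (log2 change 0.47 ± 0.05, adjusted p = 3.74e-09), and MT-CO1, a catalytic subunit of the same enzyme, at 1395, 1488, 1296 and 1376 CPM and then 1551, 1930.0, 1554 and 1794 CPM (log2 change 0.29 ± 0.05, adjusted p = 6.99e-06). As summed CPM without TMM scaling, the 13 were at 51540 to 54690 with venetoclax and 54580 to 57540 with the combination, overlapping ranges. Counted over all mitochondrially encoded transcripts and not only these 13, the mitochondrial share of each library rose by 1.013 percentage points on average. The share rose by 2.485 percentage points when the 100 most abundant other genes were left out of the total. Its part in these calls was not tested. Only 4 mitochondrial genes were called without the clone block, and 3 with clone 3 added. Long noncoding RNAs held in the nucleus or tied to translation gave 5 higher and 1 lower of 10, with GAS5, a snoRNA host, at log2 0.39 ± 0.05 (4.70e-07), MALAT1 at 0.68 ± 0.16 (0.00924, overlapping groups; 0.0834 without clone 5, 0.0693 without the clone block and 0.0801 with only the 8 libraries compared) and SNHG15 the lower one (-0.39 ± 0.08, 4.47e-04).

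Signalling lists outside the receptor pathway lay nearer to the background shares. Of 25 components of phosphoinositide 3-kinase, AKT and mTOR signalling 3 rose and 5 fell (median -0.05), with 1 higher without clone 2 and a median of 0.0065 with clone 3 added. EIF4EBP1, the translation repressor that ATF4 induces, fell from 36.2, 68.1, 45.5 and 49.7 CPM to 29.9, 38.9, 29 and 30.3 CPM (log2 change -0.63 ± 0.10, adjusted p = 3.69e-06), each clone by a different amount, and AKT1 fell as well (-0.39 ± 0.07, 4.62e-05). Toll-like receptor and MYD88 genes gave 4 higher and 1 lower of 21 (median 0.07), with TLR9, a sensor of DNA, at log2 0.44 ± 0.09 (1.34e-04). The higher count was 2 without clone 2 or 4, the lower count was 2 without clone 1 and 0 without clone 4 or 5, and the median was -0.0078 without clone 5. The cereblon ligase and its known substrates gave 4 higher and 3 lower of 18 (median 0.06), GSPT1, a translation termination factor, being lower (-0.38 ± 0.06, 2.73e-06). These counts became 2 and 4 without clone 1, 2 and 2 without clone 4 and 1 and 1 without clone 5.

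Ranked by size alone among called genes with a mean of at least 5 CPM over the 8 libraries, the largest rises did not belong to 1 pathway. Genes that reached this mean only through the higher group had to differ, among them TAS1R3 and VPREB3, and LILRA4 among the falls. TAS1R3, a taste receptor subunit, led, from 2.4, 0.566, 2.14 and 1.87 CPM to 15.9, 7.31, 18.8 and 10.4 CPM (log2 change 2.91 ± 0.20, adjusted p = 2.11e-14). Next were GNB3, a G protein subunit (2.13 ± 0.14, adjusted p = 5.50e-15), the inflammasome-family gene NLRP7 (2.07 ± 0.12, 8.39e-17) and VPREB3, a B lineage chaperone-like gene (1.87 ± 0.20, 3.61e-09). PLAC8, at 40.2, 60.6, 46.4 and 56.6 CPM and then 109, 164, 107 and 169 CPM (log2 change 1.42 ± 0.07, adjusted p = 3.77e-19), ID3 and CAMK2N1, an inhibitor of a calcium-dependent kinase (1.38 ± 0.09, 1.02e-15), were the most abundant of the 14. DAPK2, a death-associated kinase, rose by log2 1.39 ± 0.11 (4.75e-13). Among the 14 largest falls, IL10, EBI3, NFKBID and MIR155HG have been given. The others included LILRA4, a leukocyte receptor (-2.43 ± 0.23, 7.96e-11), CAV1, the coat protein of caveolae (-1.74 ± 0.12, 2.64e-14), CD226, an adhesion receptor (-1.71 ± 0.19, 6.92e-09), TIAM1, an activator of RAC (-1.70 ± 0.20, 1.24e-08), and SGPP2, a phosphatase of sphingosine 1-phosphate (-1.50 ± 0.18, 1.26e-08). All 28 genes moved the same way in 4 of 4 clones, as the rule that picked them required.

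The same drug was also given without venetoclax in these clones, which asks whether the response depends on the partner. Against DMSO, bexobrutideg called 1793 genes (13%), with 851 higher (6.16%) and 942 lower (6.81%). The 2 comparisons share no library. Called in both with the same sign were 1243 genes, which is 31.4% of the calls made with venetoclax and 69.3% of those made without it, while 8 had opposite signs. NF-kB subunits and feedback genes gave 11 lower and none higher without venetoclax (14 with it), the ATF4 list 26 lower (25 with it) and the mitosis list 17 lower (10 with it). The direct test of the difference called 0 of the 39 mitosis genes (edgeR's quasi-likelihood test) and 3 of the 31 ATF4 genes. The MYC and ribosome biogenesis list gave 7 lower without venetoclax against 32 with it, and ribosomal proteins none higher against 38. For these lists the direct test called a difference for only 5 of 41 and 4 of 46 genes.

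The difference between the responses was tested directly and called for 394 genes (2.85%), 241 of them (1.74%) with a more positive change in the presence of venetoclax and 153 (1.11%) with a more negative one. Under upper-quartile scaling the split was 377 and 100 (79% more positive, against 61.2%). Of the list members, 5 MYC and ribosome biogenesis genes, 4 NF-kB genes and 6 output genes were more negative, and 5 interferon-stimulated, 4 ribosomal protein and 4 BH3-only genes more positive. Other lists went both ways, with 6 more positive and 2 more negative among germinal centre regulators, 5 and 1 among identity markers, 3 and 3 in glycolysis and 2 and 1 in the ATF4 list. These calls rest on the clone block, without which 2 genes were called, and none was called with clone 3 added (1 library of low depth).

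KLF2, a factor of B cell quiescence and homing, had the smallest p. With venetoclax it rose by log2 0.33 ± 0.07 and without it fell by log2 0.58 ± 0.07, a difference of 0.91 ± 0.10 (adjusted p = 3.40e-07). CFLAR fell by log2 0.49 ± 0.06 with venetoclax and had a change of -0.0002 ± 0.06 without it (adjusted p = 0.999), a difference of -0.49 ± 0.08 (5.71e-04). NOLC1 likewise changed by -0.66 ± 0.06 with and -0.09 ± 0.07 without (difference -0.57 ± 0.10, 4.94e-04). OAS1 changed by 0.78 ± 0.07 with and 0.13 ± 0.06 without (0.64 ± 0.09, 6.11e-05). For these 3 genes the response without venetoclax did not pass the test.

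Other genes responded in both settings and more strongly with venetoclax. ID3 rose by log2 1.78 ± 0.09 with and 0.77 ± 0.08 without (difference 1.01 ± 0.12, adjusted p = 8.47e-07), and S1PR2 by 1.52 ± 0.12 and 0.51 ± 0.09 (1.01 ± 0.15, 1.42e-04). HRK rose by 1.36 ± 0.10 and 0.56 ± 0.08 (0.80 ± 0.13, 3.31e-04) and BBC3 by 0.85 ± 0.06 and 0.43 ± 0.05 (0.42 ± 0.08, 0.00176). Under DMSO, BBC3 had stood at 153, 160.4, 192 and 169 CPM and HRK at 30.6, 23.1, 35.7 and 33.3 CPM, well above their levels with venetoclax alone, and 3 of 4 combination levels of HRK and 1 of 4 of BBC3 lay within the DMSO range. ID3, at 30.3, 35.8, 52.2 and 44.6 CPM under DMSO, ended above that range in each clone. Among genes that fell, IRF4 changed by -1.28 ± 0.05 and -0.99 ± 0.05 (-0.28 ± 0.07, 0.025), BATF by -1.39 ± 0.05 and -0.86 ± 0.06 (-0.53 ± 0.08, 1.35e-04) and EBI3 by -2.30 ± 0.16 and -1.001 ± 0.15 (-1.30 ± 0.23, 0.00131). For MIR155HG (-0.35 ± 0.12, 0.122), MYC (-0.08 ± 0.09, 0.776) and BCL2A1 (0.09 ± 0.08, 0.616) a difference was not detected.

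**Figure D4:**
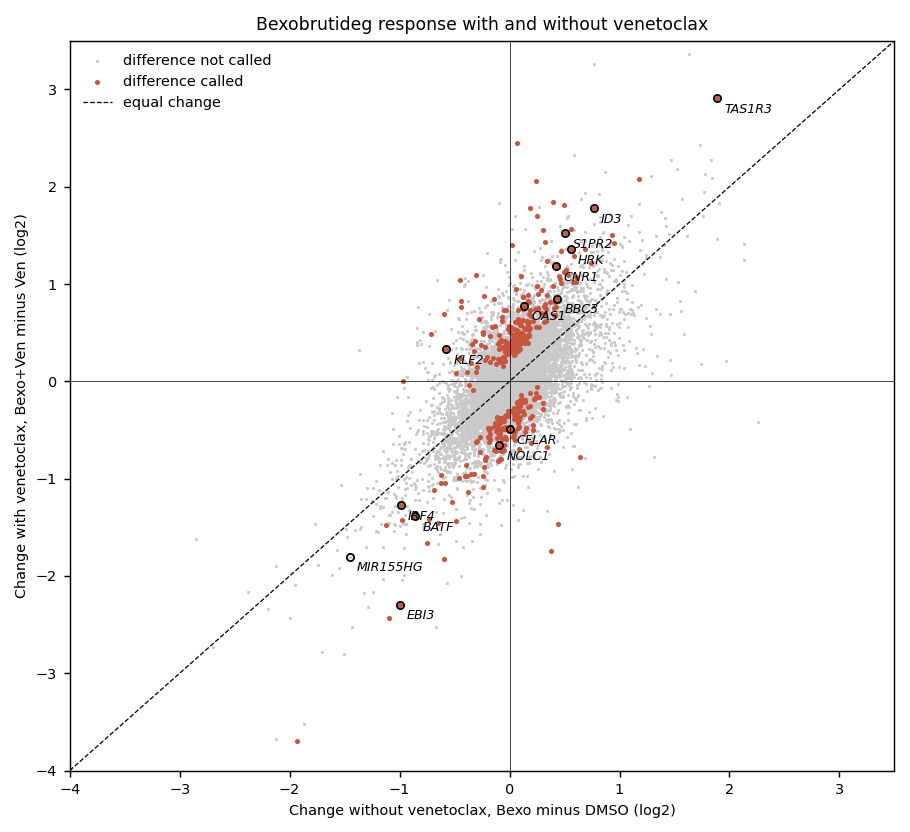
Log2 change on adding bexobrutideg with venetoclax (vertical) against the change without it (horizontal), 1 point per gene tested, with the 394 genes whose difference was called in red and a dashed line at equal change. Most named genes lie in the same quadrant on both axes, KLF2 lies at -0.58 and 0.33, and CFLAR and NOLC1 lie below the 0 line near 0 on the horizontal axis.

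A428D clones give the same drug addition in cells whose BTK carries the substitution. In 6 such clones no gene was called (0 of 13641 by edgeR's quasi-likelihood test and 0 by DESeq2), and 1132 genes had an unadjusted p under 0.05. Leaving out A428D clone 6 gave 19 calls, and leaving out clone 2 or clone 3 gave 1 call each. The difference in response between genotypes was called for 2384 genes (17.5%), with 1277 (9.36%) more positive in A428D and 1107 (8.12%) more negative. In the NF-kB list 14 of 21 differences were called, all more positive in A428D, and in the ATF4 list 19 more positive and 1 more negative of 31. Among ribosomal proteins 34 of 46 were more negative in A428D, and among interferon-stimulated genes 14 of 33, with none more positive in either. Without the clone block 313 differences were called, and 523 with wild-type clone 3 added.

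IRF4 in A428D clones was at 419.6 to 658 CPM (median 512) with venetoclax and 371 to 568 CPM (median 499.7) with the combination. Wild-type clones, scaled in the same fit, were at 578.7 to 648.8 and then 232.5 to 269.1 CPM, so the A428D groups overlapped and the wild-type groups did not. The A428D change was log2 -0.12 ± 0.04 (adjusted p = 0.383) and the difference between genotypes 1.15 ± 0.06 (1.75e-16). MIR155HG was at 50.2 to 77 CPM (median 61.3) and then 43.6 to 76 CPM (median 55.1) in A428D (change -0.12 ± 0.05, difference 1.66 ± 0.09, adjusted p of the difference 1.31e-16). NFKBIA had 118 to 154 CPM (median 136) and then 116 to 158 CPM (median 135) (change 0.0010 ± 0.04, difference 1.46 ± 0.07, 2.28e-17). With venetoclax alone the A428D clones lay below the wild-type clones in MIR155HG and NFKBIA, a difference of clones that was not tested here.

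BBC3 in A428D clones was at 69.8 to 83.1 CPM (median 75) and then 60.4 to 78.5 CPM (median 69.6) (change -0.11 ± 0.05, difference -0.98 ± 0.08, adjusted p of the difference 2.46e-12). CARS1 had 89.3 to 135 CPM (median 125) and then 79 to 126 CPM (median 112) (change -0.13 ± 0.04, difference 1.28 ± 0.07, 9.64e-17). ID3 had 10.9 to 28.4 CPM (median 14.4) and then 12.6 to 31.1 CPM (median 15.7) (change 0.06 ± 0.09, difference -1.73 ± 0.13, 9.88e-13), and ISG20 44.4 to 72.3 CPM (median 62.5) and then 39.8 to 76.3 CPM (median 62) (change 0.02 ± 0.05, difference -1.01 ± 0.08, 2.97e-12). MYC and SRM differed less, by log2 0.46 ± 0.07 and 0.57 ± 0.07 (1.03e-05 and 2.86e-08). For each of these genes the A428D libraries of the 2 treatments overlapped. The small rise of BTK RNA was also a difference between genotypes (-0.28 ± 0.08, 0.00725), with an A428D change of -0.01 ± 0.05. The absence of calls does not show that A428D clones did not respond.

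**Figure D5:**
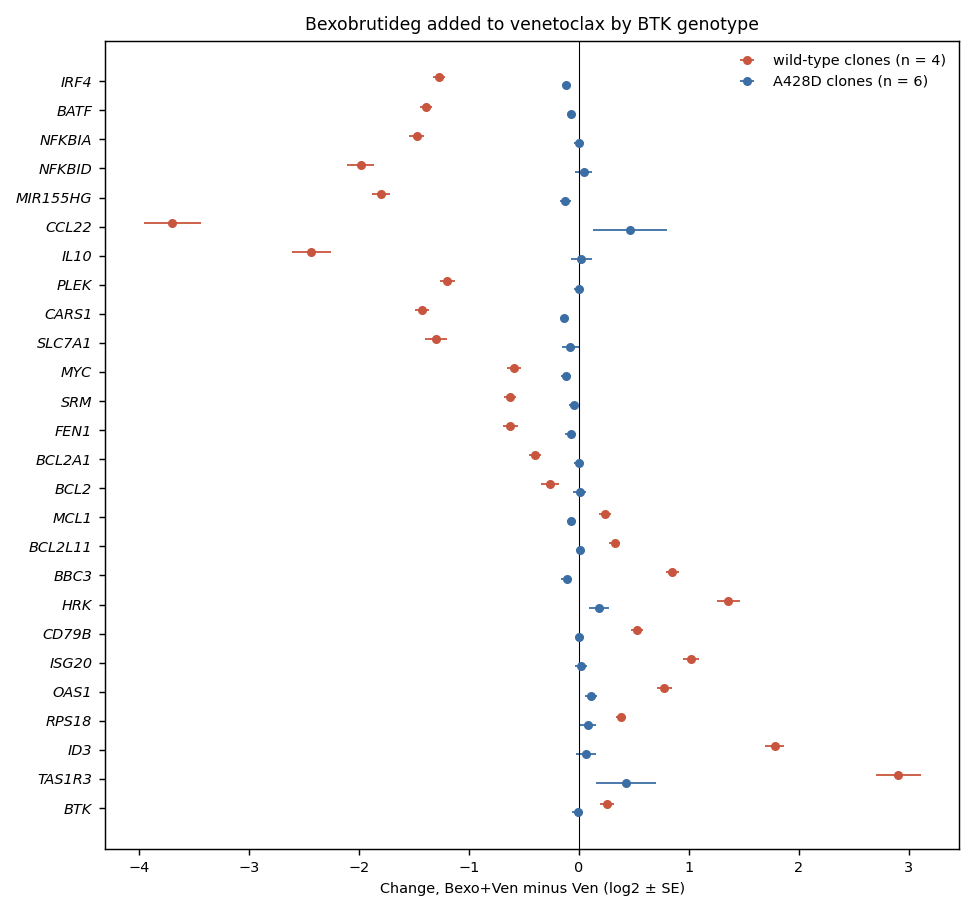
Log2 change (± standard error) on adding bexobrutideg to venetoclax for 26 genes, in wild-type clones (red, n = 4) and A428D clones (blue, n = 6). Wild-type values spread from -3.70 for CCL22 to 2.91 for TAS1R3, and A428D values lie near 0, with the widest bars for the scarce CCL22 and TAS1R3.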

How the data were processed

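Gene-level counts per library were deposited as 1 table of 100 libraries by 78894 identifiers. They are estimated counts (8.75% of values are not whole), made by the authors on GRCh38 with tools that include fastp 0.24.0, Subread 2.1.1 (featureCounts) and STAR 2.7.11, per the submitters' processing notes, which name tools without order or settings. The library kit's strand setting is not given in the sources used here, so overlapping and antisense genes may share reads. Counts were rounded (total changed by -0.0068%), 92 spike-in identifiers were left out (at most 0.001% of counts), and 36134 identifiers without a symbol stayed in the tests but are not named.

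Genes were filtered with filterByExpr (minimum count 10, minimum total 15), scaled by TMM and fitted with edgeR 4.0.16 (R 4.3.3), with the clone as a block and 9 residual degrees of freedom over the 16 wild-type libraries of DMSO, bexobrutideg, venetoclax and the combination. The quasi-likelihood test was adjusted by Benjamini-Hochberg over all genes tested, and genes under 0.05 were called. List counts are over members that passed the filter, and in a list the members that passed only through the higher group had to differ. For A428D, the 20 venetoclax and combination libraries were fitted together. Replicate numbers name a clone: in the 500 genes used, same-clone deviations of venetoclax and combination libraries correlated at 0.409, 0.406, 0.106 and 0.273, and 15 of 16 libraries lay nearest to another of their own clone. The alternatives were DESeq2 1.42.0, other scalings and filters, no block, thinning, a GC correction, each clone left out and clone 3 added.

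The samples, gene lists and tests were chosen with earlier results of these data known. Named genes were the 14 largest changes in each direction (mean at least 5 CPM, same sign in 4 of 4 clones), a set list of 16 genes around BTK, IRF4, MYC and the BCL2 family, up to 4 called members with the smallest p in each list, and the 8 smallest p-values in each direction of each difference; a few of the genes covered are not reported here. Added after their values were seen were members that moved against their list and well known members: LTB, GADD45B, IL16, IL6, CCL4, E2F2, DCK, MLXIP, MXD1, MXD3, MXD4, ATF4, ATF5, ASNS, PHGDH, DDIT3, TNFAIP3, REL, RELA, NFKB2, BCL3, JUN, ZFP36, EGR2, HSPA1A, HSPA1B, DNAJB4, XBP1, ERN1, SYVN1, CDKN2D, HLA-DQA1, CD27, CD52, MALAT1, SNHG15, ELL2, IRF8, SPI1, PAX5, TCF3, FOXO1, FOXO3, CXCR4, CIITA, PRDM1, BCL6, MS4A1, PIM1, S1PR1, TP53INP1 and GADD45A. On simulated data of 13581 genes, with few genes changed and the same change in every clone, the fit called 9 unchanged genes.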

Additional observations from a re-analysis of the deposited data

Results flagged for a closer look

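Within groups of 4 clones, 10 of 88 groups tested held 1 library whose gap to its nearest neighbour exceeded Dixon's 95% critical value, where chance alone gives about 1 in 20. With the combination, BTK was at 80.97 CPM in clone 1 against 83.01 to 83.29 CPM in the others, CARS1 at 66.96 CPM in clone 2 against 56.34 to 57.76 CPM, SLC7A1 at 19.8 CPM in clone 2 against 13.4 to 14.17 CPM, and BCL2L11 at 423.6 CPM in clone 1 against 335.7 to 341.1 CPM. Also with the combination, CXCR5 was at 13.04 CPM in clone 4 against 10.38 to 10.8 CPM, and KLF2 at 65.78 CPM in clone 2 against 68.83 to 69.35 CPM. With venetoclax alone, NFKBIA was at 199.5 CPM in clone 1 against 167.7 to 169.9 CPM, MCL1 at 151.8 CPM in clone 2 against 174 to 178.3 CPM, CD79B at 294.6 CPM in clone 1 against 234.2 to 241.9 CPM, and NDUFA4 at 279 CPM in clone 2 against 262.8 to 265.2 CPM.

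The response to bexobrutideg differed with and without venetoclax for 394 genes by a test of the difference. Log2 differences (with minus without) were more positive for ID3 (1.01), S1PR2 (1.01), KLF2 (0.91), CNR1 (0.75), SAT1 (0.65), OAS1 (0.64), CLMN (0.63) and SMIM14 (0.50). They were more negative for EBI3 (-1.30), TYMP (-0.63), GAMT (-0.60), NOLC1 (-0.57), BATF (-0.53), HNRNPAB (-0.53) and CFLAR (-0.49).

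The response differed between A428D and wild-type clones for 2384 genes. Log2 differences (A428D minus wild type) were positive for NFKBID (2.02), MIR155HG (1.66), NFKBIA (1.46), BATF (1.30), CARS1 (1.28), PLEK (1.18), IRF4 (1.15) and RNF213 (0.99). They were negative for ID3 (-1.73), PLAC8 (-1.20), GNG11 (-1.08), ISG20 (-1.01), BBC3 (-0.98), ST6GAL1 (-0.88), RASSF6 (-0.83) and NAPSB (-0.79).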

How the results depend on the processing

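Of 249 called genes among the 260 that the naming rules and later additions cover, 160 kept direction and call under every alternative that tested them. With the addition of clone 3 left aside, 208 did. A gene that an alternative's filter removed was not counted as lost there, which concerns scarce genes under the filter of a mean count of at least 50. For bexobrutideg added to venetoclax, 3956 genes were called, against 2515 without the replicate block, 2067 with clone 3 added and 3023 to 3553 when 1 clone was left out. Against DMSO the count of 1793 became 666 without the block, 1064 with DESeq2, 617 with clone 3 added and 1018 to 1534 with a clone left out. The test of the difference with and without venetoclax went from 394 to 2 without the block, 0 with clone 3 added (edgeR's quasi-likelihood test) and 127 to 269 with a clone left out. The difference between genotypes went from 2384 to 313 without the block, 1169 with DESeq2, 523 with clone 3 added and 1742 to 2410 with a clone left out. In A428D clones alone 0 genes became 17 with no expression filter and 0 to 19 with a clone left out (19 without clone 6). With clone 3 added, 4 genes changed sign without a call: RPS14 (-0.0789), MT-ND4 (-0.000385), MT-CO2 (-0.0891) and ERAP1 (0.0035). The cause of these changes was not tested. Of 84 list counts, 39 moved by more than 1.5 times with clone 3 added and 23 without the block. In data simulated at the depth of these libraries, 84 of 95 genes changed by log2 1 and 54 of 99 changed by 0.5 were recovered. The simulation changed only these genes and by the same amount in every clone. Recovery with as many changes as called here, or with clones that respond unequally, was not tested. How recovery depends on depth or on the level of a gene was not tested.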

Other observations

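Several genes outside the lists also answered bexobrutideg differently with and without venetoclax. SAT1, the enzyme that breaks down polyamines, rose from 66.9, 53.5, 63.3 and 54.7 CPM to 120.1, 104, 122 and 111 CPM with venetoclax (log2 change 0.94 ± 0.06, adjusted p = 7.74e-16) and by log2 0.29 ± 0.05 against DMSO. CNR1, a cannabinoid receptor gene, rose from 20.6, 19.1, 14.9 and 18.7 CPM to 46.9, 45.3, 31 and 43.2 CPM (log2 change 1.18 ± 0.09, adjusted p = 7.58e-14), against 0.43 ± 0.07 without venetoclax. In both, all 4 clones moved up and the groups did not overlap. TYMP, which breaks down thymidine, fell from 79.96, 109, 83.5 and 103 CPM to 47.2, 52.6, 44.7 and 48.4 CPM (log2 change -0.95 ± 0.07, adjusted p = 1.86e-13), against -0.33 ± 0.07 without venetoclax.

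Among genes outside the lists whose response differed most clearly between genotypes, ST6GAL1, a sialyltransferase of the B cell surface, rose in wild-type clones from 99, 69.2, 109.8 and 96.4 CPM to 172, 126, 173 and 157 CPM (log2 change 0.75 ± 0.06, adjusted p = 1.19e-13). The A428D change was log2 -0.12 ± 0.04 (adjusted p = 0.459). RASSF6, a RAS-association domain gene, rose from 145, 115, 111 and 105 CPM to 244, 202, 209 and 179.9 CPM (log2 change 0.81 ± 0.06, adjusted p = 2.11e-14), with an A428D change of -0.01 ± 0.04 (0.986). RNF213, a large interferon-inducible ubiquitin ligase gene, fell from 335, 207, 225 and 201 CPM to 165, 126, 134 and 121 CPM (log2 change -0.81 ± 0.06, adjusted p = 4.28e-14), unlike the interferon-stimulated list, and its A428D change was 0.19 ± 0.04 (0.159). Clone 1 held the most RNF213 in both groups, which did not overlap.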
